A study of Mus musculus with 23 samples.

Results

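The cytoplasmic ribosomal protein genes were taken from the deposited mouse RNA-seq table by their symbols: Rpl or Rps followed by a number and at most 1 letter, with Rplp0, Rplp1, Rplp2 and Rpsa added, and with pseudogenes named -ps and the Rps6k kinases left out. The rule found 83 members among 54347 genes, of which 51 belong to the large subunit and 32 to the small subunit. Of these, 79 passed the filter on low counts and were tested. The rule keeps 3 genes that the GENCODE M21 annotation calls pseudogenes (Rps4l, Rpl6l and Rpl32l), and it leaves out the ribosomal proteins such as Fau and Rps3a1, whose symbols do not follow it.

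Ribosomal proteins are the protein part of the cytoplasmic ribosome. A large and a small subunit assemble in the nucleolus on ribosomal RNA, and a large share of a growing cell's transcription and translation goes into making them. Their mRNAs typically start with a run of pyrimidines, the terminal oligopyrimidine tract, through which mTOR signalling and the RNA-binding protein LARP1 control their translation together. Most members are needed in equal numbers in each ribosome, while a few have tissue-restricted paralogs, and processed pseudogene copies of them are frequent in mammalian genomes.

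The libraries came from the labial cervical loop of the lower incisor, the epithelial fold that feeds the continuously growing mouse tooth, at postnatal day 2. All mice carried GFP driven by the endogenous Sox2 promoter, and cells were sorted by fluorescence into Sox2-positive cells, named dental epithelial stem cells in the labels, and Sox2-negative cells, which are the other cells of the dissected region. No treatment or deletion was applied. Batch A holds 6 Sox2-positive and 6 Sox2-negative libraries, and batch B holds 7 Sox2-positive and 4 Sox2-negative libraries. The batches are separate days with different mice, and day and mice cannot be told apart. Here n counts Smart-seq2 libraries. Whether each library is a mouse of its own is not given in the labels, so p-values measure only the spread between libraries, which may be technical.

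Library totals ranged from 2305588 to 9541800 estimated counts, and 78 of the 83 members had at least 100 counts in every library. Sox2 itself lay between 2.55 and 20.4 CPM (counts per 1000000 of the library total after TMM scaling) in Sox2-positive libraries and between 0 and 1.19 CPM in Sox2-negative libraries. Epithelial markers were called higher in Sox2-positive cells for 7 of 7 genes tested, with summed levels of 3586 to 5745 CPM against 144 to 390 CPM. Lower in Sox2-positive cells were 8 of 8 mesenchymal, 7 of 7 leukocyte, 6 of 6 endothelial and 7 of 7 erythroid markers. Erythroid markers summed to 53611 to 62038 CPM in batch B Sox2-negative libraries, 985 to 1188 CPM in batch A Sox2-negative libraries and at most 11.6 CPM in Sox2-positive libraries. Mesenchymal markers summed to 11156 to 14373 CPM in Sox2-negative and still to 718 to 1934 CPM in Sox2-positive libraries. Ameloblast markers, of the enamel-forming cells, were lower in Sox2-positive cells for 4 of 4 genes tested. Glial and neural crest markers set batch A Sox2-positive libraries apart, at 774 to 982 CPM against 24.2 to 72.2 CPM in the other 3 groups, with 5 of 6 called higher and 1 lower in Sox2-positive cells over both batches. Markers of other cell types were thus present in both populations and differed between the batches, and their part in the differences below was not tested.

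On average, the members took a smaller share of the counts in Sox2-positive than in Sox2-negative libraries of the same batch, and a larger share in batch B than in batch A. The share was 5.18% ± 0.195 (SD, n = 6) in batch A Sox2-negative libraries, with a range of 4.89% to 5.41%. It was 4.45% ± 0.404 (SD, n = 6) in batch A Sox2-positive libraries, with a range of 4.02% to 5.12%. These ranges overlapped through 1 Sox2-positive library, number 3, at 5.12%. In batch B the share was 6.26% ± 0.403 (SD, n = 4) in Sox2-negative and 5.68% ± 0.504 (SD, n = 7) in Sox2-positive libraries, again with overlapping ranges. Within batch B the libraries numbered 1 and 2 were above all others of their population, at 6.44% and 6.73% against 5.83% and 6.03% in Sox2-negative cells, and at 6.43% and 6.33% against 5.24% to 5.68% in Sox2-positive cells. With these 4 libraries set aside the mean shares were 5.93% in Sox2-negative and 5.39% in Sox2-positive cells. The 10 most abundant members of each library held 26.8% to 29.3% of the member counts in Sox2-negative libraries and 32.1% to 33.8% in Sox2-positive libraries, so the counts were concentrated in fewer members in every Sox2-positive library. In bulk RNA, fewer cells with high ribosomal protein mRNA and less of it per cell cannot be told apart.

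**Figure D1:**
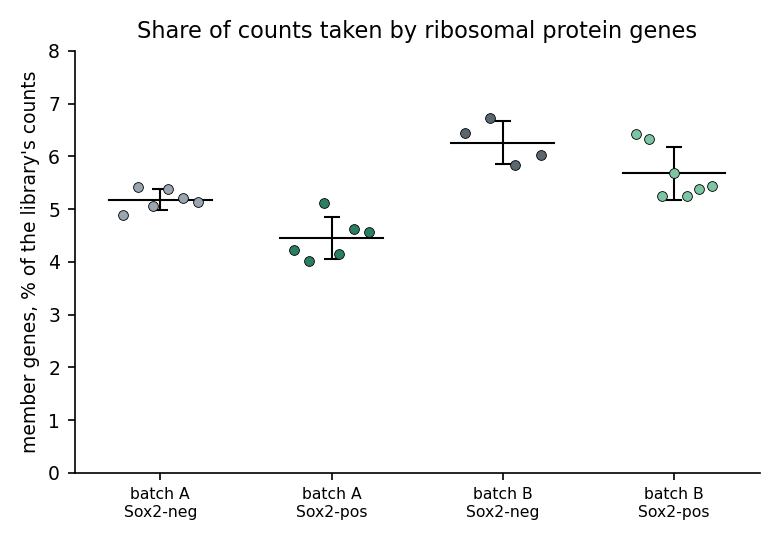
Share of each library's estimated counts assigned to the 83 ribosomal protein genes, in percent, for the 4 groups. Points are libraries, horizontal lines are means and bars are 1 SD. Batch A Sox2-positive libraries are lowest, at 4.02% to 5.12%, and batch B Sox2-negative libraries are highest, at 5.83% to 6.73%.

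Most members were lower in Sox2-positive than in Sox2-negative cells, and a small set that includes Rpl3, Rpl4 and Rplp0 went the other way. With both batches in the fit, 59 of 79 tested members were called lower (74.7%) and 10 higher (12.7%) by edgeR's quasi-likelihood test at an adjusted p under 0.05, while 32.5% of all 17190 genes tested were called lower and 24.9% higher. The median log2 fold change of the tested members was -0.47, and that of all genes was -0.12. The large subunit had 35 members lower and 8 higher of 47, and the small subunit had 24 lower and 2 higher of 32. Members lower by more than 1 on the log2 scale numbered 9: Rpl39, Rpl39l, Rplp1, Rplp2, Rps12, Rps15a, Rps20, Rps21 and Rps27a. No member was higher by more than 1. The lower and upper quartiles of the log2 fold change were -0.83 and -0.20 over the tested members. Over all genes tested they were -1.10 and 0.66, so the members were spread over a narrower range. The backgrounds over all genes given here and below were not matched to the members' count levels, on which calls and spread also depend.

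Each batch alone gave a similar division. In batch A, 59 members were called lower and 3 higher, against 24.2% and 19.3% of 14296 genes, and in batch B 48 were lower and 12 higher, against 27.6% and 27.1% of 15765 genes. The members called lower in both batches numbered 47, and those called higher in both were Rpl3, Rpl4 and Rplp0. No member was called in opposite directions. The fold changes had the same sign in both batches for 70 of 79 members, and the 9 with opposite signs were Rpl5, Rpl14, Rpl32, Rpl36, Rps2, Rps18, Rps25, Rps27 and Rps27l. Joint calls and shared signs were not counted over all genes, so whether this agreement is particular to the members was not tested. Over both batches and every one of 35 alternative analyses, 49 of the 59 lower members kept their call, and so did 5 of the 10 higher ones, Rpl3, Rpl4, Rpl35 and Rplp0 among them.

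**Figure D2:**
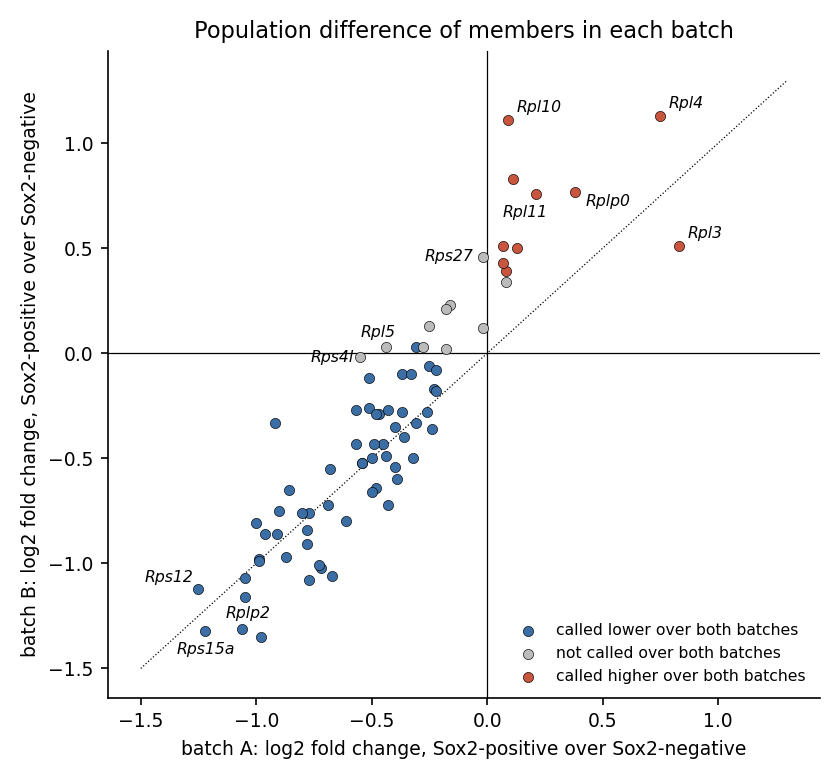
Log2 fold change of Sox2-positive over Sox2-negative cells in batch A (x axis) and in batch B (y axis) for 78 tested members, with Rpl39l (-5.26 and -4.13) outside the plotted range. Colours give the call over both batches, and the dotted line marks equal values. Most members lie at the lower left, Rpl3, Rpl4 and Rplp0 in the upper right, and Rpl10 close to 0 in batch A but at 1.11 in batch B.

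The stalk of the large subunit, which recruits translation factors to the ribosome, is built on Rplp0, with the small acidic proteins Rplp1 and Rplp2 bound to it as dimers. Its genes divided between the directions. Rplp1 was 818, 937 and 1016 CPM (lowest, median and highest) in batch A Sox2-negative and 382, 465 and 553 CPM in batch A Sox2-positive libraries. In batch B it was 1761, 2007, 1164 and 1286 CPM in Sox2-negative libraries 1 to 4 and 664, 738 and 832 CPM in Sox2-positive libraries. The Sox2-positive libraries lay below the Sox2-negative ones of their batch with no overlap, and the log2 fold change over both batches was -1.02 ± 0.08 (SE, edgeR adjusted p = 3.64e-11). Rplp2 was 525, 549 and 634 CPM in batch A Sox2-negative and 203, 266 and 349 CPM in batch A Sox2-positive libraries. Its batch B values were 1329.6, 1404, 746 and 835 CPM in Sox2-negative and 369, 393 and 493 CPM in Sox2-positive libraries, again with no overlap and with libraries 1 and 2 highest. The log2 fold change of Rplp2 was -1.21 ± 0.11 (edgeR adjusted p = 2.46e-10).

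Rplp0 was 786, 926 and 995 CPM in batch A Sox2-negative and 1107, 1179 and 1261 CPM in batch A Sox2-positive libraries. Its batch B values were 1073.5, 1072, 1257 and 1140 CPM in Sox2-negative libraries and 1709, 1834 and 2067 CPM in Sox2-positive libraries. Every Sox2-positive library was above every Sox2-negative library of its batch, and the log2 fold change over both batches was 0.52 ± 0.06 (edgeR adjusted p = 6.9e-08). Set beside its partners per kilobase of transcript, the mean level of Rplp0 in batch A went from 671 to 870 CPM per kilobase between Sox2-negative and Sox2-positive cells, while that of Rplp1 went from 1853 to 932 and that of Rplp2 from 1344 to 641. In batch B these levels went from 835 to 1359, from 3115 to 1492 and from 2563 to 983. Pseudogene copies found by sequence held 29.8% of the counts of Rplp0 and its copies together, and none was found for Rplp1 or Rplp2. A per-gene adjustment may also be part of the deposited counts, so levels of different genes compare only roughly.

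**Figure D3:**
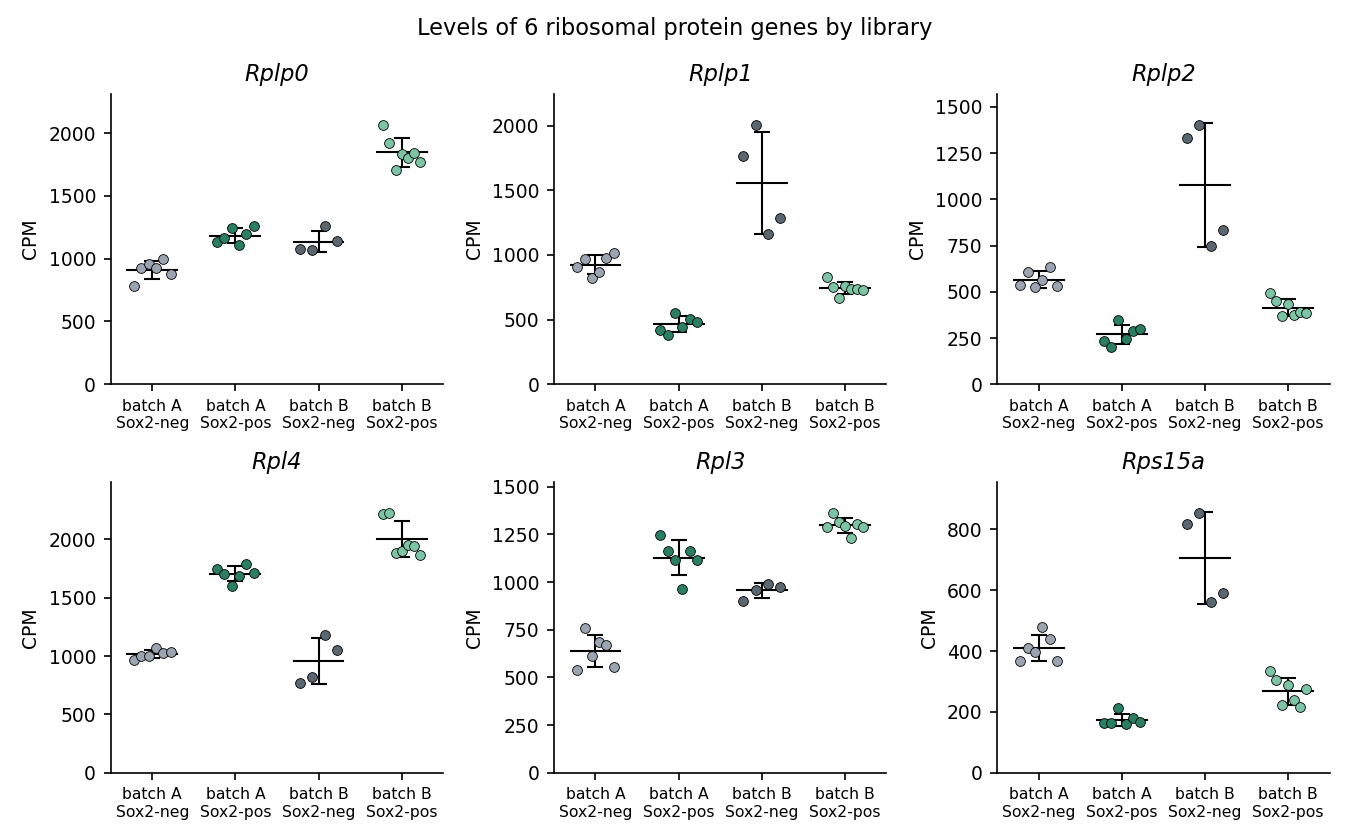
CPM by library and group for Rplp0, Rplp1, Rplp2, Rpl4, Rpl3 and Rps15a, each on a linear axis from 0. Points are libraries, lines are group means and bars are 1 SD. Rplp0, Rpl4 and Rpl3 are higher in Sox2-positive than in Sox2-negative libraries of each batch, and Rplp1, Rplp2 and Rps15a are lower.

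Rpl4 and Rpl3, both long proteins of the large subunit that bind its RNA early in assembly, had the highest fold changes. Rpl4 was 966, 1014 and 1072 CPM in batch A Sox2-negative and 1599.8, 1710.4 and 1789 CPM in batch A Sox2-positive libraries. In batch B it was 768, 822, 1184 and 1056 CPM in Sox2-negative libraries and 1869.9, 1948 and 2226 CPM in Sox2-positive libraries. The groups did not overlap in either batch, and the log2 fold change was 0.89 ± 0.07 (edgeR adjusted p = 4.4e-11). Rpl3 was 541, 640 and 760 CPM in batch A Sox2-negative and 965, 1140.1 and 1246 CPM in batch A Sox2-positive libraries. Its batch B values were 898, 960, 992 and 973 CPM in Sox2-negative and 1231, 1294.5 and 1361 CPM in Sox2-positive libraries. For Rpl3 too the groups did not overlap, with a log2 fold change of 0.65 ± 0.07 (edgeR adjusted p = 1.6e-08).

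The lowest fold changes after Rpl39l were those of Rps15a and Rps12, both proteins of the small subunit. Rps15a was 368, 402 and 479 CPM in batch A Sox2-negative and 160, 165 and 213 CPM in batch A Sox2-positive libraries. Batch B values were 819, 853, 562 and 591 CPM in Sox2-negative and 216, 274 and 333 CPM in Sox2-positive libraries. The log2 fold change was -1.31 ± 0.09 (edgeR adjusted p = 3.9e-12), a level 2.47 times lower in Sox2-positive cells, and the groups did not overlap in either batch. Rps12 was 178, 265 and 278 CPM in batch A Sox2-negative and 89, 104 and 119 CPM in batch A Sox2-positive libraries, and its batch B values were 286, 251, 291 and 279 CPM against 111, 118 and 134 CPM. Its log2 fold change was -1.23 ± 0.09 (edgeR adjusted p = 2.68e-12), and it did not pass the test between batches in either population. These values leave out the pseudogene Rps12-ps3, which had 41510 counts over all libraries against 20965 of Rps12. All -ps copies held 56.9% and 57.3% of the Rps12 sum in batch A Sox2-negative and Sox2-positive libraries, against 71.4% and 68% in batch B. The batches were compared here without these copies. Rps27a, made as a fusion with ubiquitin that is cleaved off, was 824, 930 and 1096 CPM in batch A Sox2-negative and 425, 464 and 504 CPM in batch A Sox2-positive libraries. The batch B levels were 1435, 1506, 1295 and 1279 CPM in Sox2-negative libraries 1 to 4 and 565, 602 and 727 CPM in Sox2-positive libraries. The log2 fold change of Rps27a was -1.09 ± 0.06 (edgeR adjusted p = 8.95e-14), and its Sox2-positive libraries lay below the Sox2-negative ones of each batch.

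Rpl10, a large-subunit protein that is added late in assembly, was called higher over both batches, but the difference between the populations was not the same in the batches. Rpl10 was 158, 267 and 373 CPM in batch A Sox2-negative and 257, 270 and 339 CPM in batch A Sox2-positive libraries. Its levels in batch B were 97.2, 119, 203 and 221 CPM in Sox2-negative libraries and 272, 340 and 363 CPM in Sox2-positive libraries. The groups overlapped in batch A and not in batch B, with log2 fold changes of 0.09 and 1.11. These fold changes come from fits of each batch alone. The interaction, their difference as taken from the fit with all 4 groups, was 0.95 ± 0.26 (edgeR adjusted p = 0.0236). Without batch B libraries 1 and 2 the interaction was 0.50 (edgeR adjusted p = 0.385). With the -ps pseudogenes of Rpl10 added, the interaction was 0.10 (edgeR adjusted p = 0.775) and the fold change over both batches was -0.22, and with the replicate block the interaction was 1.04 (edgeR adjusted p = 0.0566).

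Over all tested members the interaction was called higher in batch B for 4 (Rpl10, Rplp0 and Rps3 among them) and lower for 1 (Rpl3), which is 5.1% and 1.3% of 79 members, while 2.82% and 4.22% of all genes were called in these directions. These counts are close to the background and moved with the settings: with total-count scaling they were 7 and 0, with RLE size factors 6 and 0, and with DESeq2 7 and 1. Without batch B libraries 1 and 2 edgeR called 0 and 0, with 4 and 1 members at an unadjusted p under 0.05. Leaving out single libraries gave 1 to 6 higher and 0 to 1 lower, the lowest higher count being without batch B Sox2-negative library 1. Rps3, a small-subunit protein at the mRNA entry site, lies outside the rule for named genes and is named because only a few members had an interaction call.

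Of the members with other known roles, Rpl5 and Rpl11 bind the smallest ribosomal RNA of the large subunit and, when unassembled, inhibit Mdm2. Rpl11 was 320, 361 and 403 CPM in batch A Sox2-negative and 374, 407 and 471 CPM in batch A Sox2-positive libraries, and 293, 279, 419 and 346 CPM against 465, 539 and 608 CPM in batch B. Its log2 fold change over both batches was 0.43 ± 0.09 (edgeR adjusted p = 0.000292), but 0.05 (edgeR adjusted p = 0.596) when the counts of its pseudogene copies were added. Rpl5 was far lower, at 47.8 to 171 CPM in batch A Sox2-negative libraries and 46.9 to 100 CPM in the other groups, and did not pass the test (log2 fold change -0.26, edgeR adjusted p = 0.199).

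Rpl10a, Rpl38 and Rps25 have been studied for effects on the translation of selected mRNAs. Rpl10a was 520, 645 and 678 CPM in batch A Sox2-negative and 350, 424 and 469 CPM in batch A Sox2-positive libraries, and 1004, 1017, 858 and 845 CPM against 573, 649 and 747 CPM in batch B. The groups did not overlap in either batch, and the log2 fold change was -0.54 ± 0.07 (edgeR adjusted p = 2.4e-07). Rpl38 was 275, 382 and 462 CPM against 161, 213 and 339 CPM in batch A, where the groups overlapped, and 632, 680, 407 and 471 CPM against 207, 248 and 311 CPM in batch B, where they did not. Its log2 fold change was -0.90 ± 0.12 (edgeR adjusted p = 5.32e-07). Rps25 was 683, 749 and 821 CPM against 569, 644 and 802 CPM in batch A and 669, 664, 623 and 682 CPM against 549, 593 and 774 CPM in batch B. Its groups overlapped in both batches, and it did not pass the test (log2 fold change -0.13, edgeR adjusted p = 0.148).

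Rps6, the small-subunit protein phosphorylated downstream of mTOR, was 762, 1205 and 1302.5 CPM in batch A Sox2-negative and 736, 833 and 1006.5 CPM in batch A Sox2-positive libraries. Batch B levels were 1041, 1093, 1232 and 1121.5 CPM against 836, 969 and 1162 CPM, so the groups overlapped in both batches. It was called lower over both batches (log2 fold change -0.28 ± 0.08, edgeR adjusted p = 0.00568), but the value was -0.02 (edgeR adjusted p = 0.789) with its -ps pseudogenes added and -0.16 (edgeR adjusted p = 0.0971) with total-count scaling. Rpsa, which is also known as a laminin receptor, was 1524, 1707 and 1884 CPM against 1306, 1343 and 1452 CPM in batch A, and 2806.5, 2893.5, 2563 and 2289 CPM against 1697, 1777 and 1842 CPM in batch B. Its groups did not overlap in either batch, and the log2 fold change was -0.44 ± 0.06 (edgeR adjusted p = 1.62e-07). Rps19, needed for small-subunit assembly and mutated in Diamond-Blackfan anaemia, was 1156.5, 1333 and 1386 CPM against 1004, 1318.5 and 1792 CPM in batch A, and 1809.5, 1918, 1358 and 1516 CPM against 1661, 1823 and 2574 CPM in batch B. Its groups overlapped in both batches, and it did not pass the test over both batches (log2 fold change 0.16, edgeR adjusted p = 0.159), where total-count scaling gave a call (0.28, edgeR adjusted p = 0.0135). In batch B alone Rps19 was called higher (0.34, edgeR adjusted p = 0.0417), a call lost in 9 of 23 alternatives.

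Paralogs with nearly the same protein were compared with their parent genes. Their coding sequences are shown because reads within these sequences tell a pair apart only where they cover differing bases. Reads from outside the coding sequence can tell a pair apart as well. The sequences are read from the GENCODE M21 transcripts on build GRCm38 (mm10), 5′ to 3′ on the sense strand, with capitals at the positions where the members of a pair differ. Rpl39 lies at chrX:37082520-37085402 (minus strand) and Rpl39l at chr16:10170226-10174911 (plus strand), both protein-coding, and their coding sequences of 156 bases differ at 23 positions and share no identical stretch longer than 38 bases.
Rpl39: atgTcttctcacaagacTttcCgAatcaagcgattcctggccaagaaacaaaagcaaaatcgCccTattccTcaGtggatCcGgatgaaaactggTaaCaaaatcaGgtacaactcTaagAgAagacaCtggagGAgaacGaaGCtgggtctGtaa
Rpl39l: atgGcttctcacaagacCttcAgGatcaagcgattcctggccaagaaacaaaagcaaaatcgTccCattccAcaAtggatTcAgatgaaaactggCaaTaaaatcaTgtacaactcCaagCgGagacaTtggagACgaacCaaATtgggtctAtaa

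Rpl39l, which in the mouse is best known from male germ cells, was the member with the lowest fold change. Its counts were 42 to 128 in batch A Sox2-negative libraries, 0 to 5 in batch A Sox2-positive libraries (17 summed over 6), 73 to 193 in batch B Sox2-negative libraries and 0 to 12 in batch B Sox2-positive libraries (31 summed over 7). The levels were 10.9, 21.5 and 30.1 CPM in batch A Sox2-negative and 0, 0.601 and 1.11 CPM in batch A Sox2-positive libraries. In batch B they were 22.9, 17.3, 11.9 and 13.4 CPM against 0, 0.908 and 2.02 CPM. In Sox2-positive libraries these levels are close to the limit that a count of 0 allows, 0.424 to 1.3 CPM for 3 counts in batch B and 0.478 to 0.712 CPM in batch A. The fitted log2 fold change was -4.76 ± 0.50 (edgeR adjusted p = 6.23e-09), and its size rests on these few counts. Its parent Rpl39, at the exit of the tunnel through which new chains leave the ribosome, was 309, 409 and 481 CPM against 171, 191 and 250 CPM in batch A and 583, 653, 455 and 525 CPM against 221, 264 and 318 CPM in batch B. The log2 fold change of Rpl39 was -1.03 ± 0.09 (edgeR adjusted p = 5.77e-10), with no overlap in either batch. Rpl39l made up 5.25% ± 1.41 (SD, n = 6) of the counts of the pair in batch A Sox2-negative, 0.273% ± 0.244 (n = 6) in batch A Sox2-positive, 2.85% ± 0.624 (n = 4) in batch B Sox2-negative and 0.311% ± 0.268 (n = 7) in batch B Sox2-positive libraries, and the highest Sox2-positive share, 0.684%, lay below the lowest Sox2-negative share, 2.49%.

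Rps27, a zinc-finger protein of the small subunit, lies at chr3:90212522-90213651 (minus strand), and Rps27l, whose gene is a known target of p53, at chr9:66946086-66949516 (plus strand). Their coding sequences of 255 bases differ at 61 positions, with no identical stretch longer than 11 bases.
Rps27: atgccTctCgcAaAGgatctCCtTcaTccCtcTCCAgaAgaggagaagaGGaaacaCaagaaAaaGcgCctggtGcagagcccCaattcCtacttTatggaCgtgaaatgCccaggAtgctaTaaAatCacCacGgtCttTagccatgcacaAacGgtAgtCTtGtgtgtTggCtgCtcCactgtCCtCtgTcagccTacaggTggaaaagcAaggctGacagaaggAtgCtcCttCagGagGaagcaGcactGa
Rps27l: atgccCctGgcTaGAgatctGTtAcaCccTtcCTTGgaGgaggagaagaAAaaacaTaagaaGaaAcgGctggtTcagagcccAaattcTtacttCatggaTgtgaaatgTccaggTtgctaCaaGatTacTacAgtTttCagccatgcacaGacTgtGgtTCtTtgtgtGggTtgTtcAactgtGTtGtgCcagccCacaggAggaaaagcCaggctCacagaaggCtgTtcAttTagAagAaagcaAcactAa

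Rps27 was 584, 640 and 726 CPM in batch A Sox2-negative and 527, 603 and 909 CPM in batch A Sox2-positive libraries, which overlapped. In batch B it was 947, 1023, 824 and 873 CPM against 1018, 1112 and 1447 CPM, where only Sox2-negative library 2 reached the Sox2-positive range. It did not pass the test over both batches (log2 fold change 0.16, edgeR adjusted p = 0.156) and was called higher in batch B (0.46, edgeR adjusted p = 0.00329). Rps27l was 234, 259 and 361 CPM against 185, 218 and 301 CPM in batch A and 204, 209, 195 and 181 CPM against 158, 177 and 234 CPM in batch B, and did not pass the test (log2 fold change -0.18, edgeR adjusted p = 0.132). The share of Rps27l in the counts of the pair was 29.4% ± 2.05 (SD, n = 6) in batch A Sox2-negative, 25.9% ± 1.83 (n = 6) in batch A Sox2-positive, 17.7% ± 0.961 (n = 4) in batch B Sox2-negative and 13.7% ± 0.35 (n = 7) in batch B Sox2-positive libraries. The ranges of the batches did not overlap, and those of the populations overlapped in batch A but not in batch B.

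**Figure D4:**
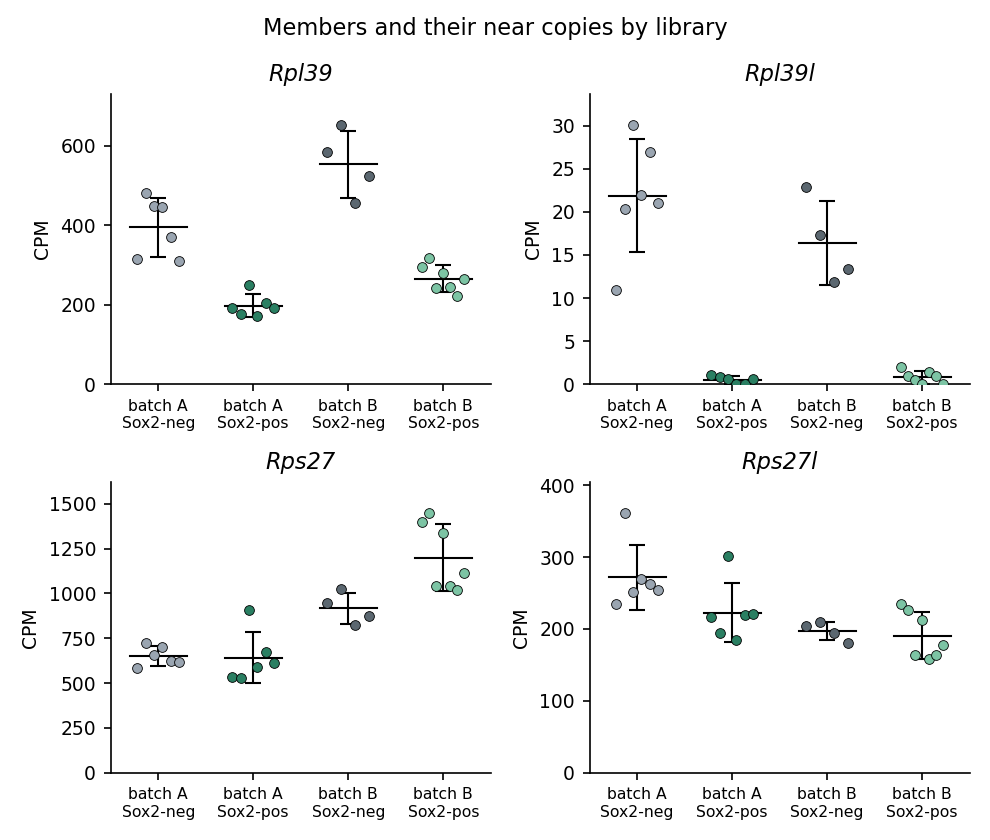
CPM by library and group for Rpl39, Rpl39l, Rps27 and Rps27l, each on a linear axis from 0. Points are libraries, lines are group means and bars are 1 SD. Rpl39l is at 0 to 2.02 CPM in Sox2-positive and at 10.9 to 30.1 CPM in Sox2-negative libraries, and Rps27 reaches 1447 CPM in batch B Sox2-positive libraries.

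Rps4x, the X-linked small-subunit protein, was 785, 934 and 986 CPM against 605, 652 and 694 CPM in batch A and 1467, 1598.5, 1402 and 1442 CPM against 886, 903 and 1215 CPM in batch B. It was called lower (log2 fold change -0.54 ± 0.07, edgeR adjusted p = 1.1e-07), with no overlap in either batch. Rps4l, annotated as a pseudogene, lay between 30.4 and 86.6 CPM over all libraries and did not pass the test (-0.35, edgeR adjusted p = 0.0705). The 4 members that did not pass the filter on low counts were Rpl3l, Rpl6l, Rpl32l and Rpl10l. Rpl3l, the striated muscle paralog of Rpl3, had 21 counts summed over batch A Sox2-negative, 0 over batch A Sox2-positive, 18 over batch B Sox2-negative and 4 over batch B Sox2-positive libraries. Rpl6l had 0, 3, 22 and 2 counts in the same order, and Rpl32l had 0, 0, 2 and 2. Rpl10l, a testis paralog of Rpl10, had no count in any library, for which 3 counts would be 0.357 to 1.3 CPM.

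Near-identical genes elsewhere in the genome limited what a single member's count means. Of the 83 members, 82 shared at least 1 word of 31 bases with another gene's transcript, the median member shared 63.2% of its words, and 60 shared more than 50%. A search by sequence found 285 pseudogene copies of 67 members. Among the counts of a member and its copies together, the copies held more than 50% for 6 members: 91.5% for Rpl5 (mostly Gm15500), 87.3% for Rpl12 (Gm10275), 76.6% for Rps13 (Rps13-ps1), 61.6% for Rps23, 57.8% for Rpl27a and 52.4% for Rpl30. Among the genes named -ps, Rpl10-ps3 held 81533 counts against 30983 of Rpl10, and all -ps copies held 72.6% of the Rpl10 sum, from 62% in batch A Sox2-positive to 86% in batch B Sox2-negative libraries. How the estimation divided reads between such copies was not tested.

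Adding the copies left the count of members called over both batches nearly as it was, at 54 lower and 10 higher with the copies found by sequence and 57 lower and 9 higher with the -ps genes, but it turned single members. Rpl10 went from 0.51 ± 0.16 (edgeR adjusted p = 0.00967) to -0.22 (edgeR adjusted p = 0.014) with its -ps genes added, but stayed at 0.53 (edgeR adjusted p = 0.00561) with the copies found by sequence, which did not include Rpl10-ps3 and held 1.62% of that sum. Rpl15, a large-subunit protein outside the rule for named genes and chosen because it turned, went from -0.20 (edgeR adjusted p = 0.0181) to 0.28 (edgeR adjusted p = 0.00434) with its copies found by sequence added. With its -ps genes it was 0.13 (edgeR adjusted p = 0.187) and not called. In batch A alone the sum with the copies found by sequence gave 0.04 (edgeR adjusted p = 0.743), and in batch B 0.54 (edgeR adjusted p = 0.00024). Rpl12, a protein at the base of the stalk, went from -0.69 (edgeR adjusted p = 8.3e-05) to -1.18 (edgeR adjusted p = 1.21e-10) with its copies found by sequence, and to -0.66 with its -ps genes. Rpl3 went from 0.65 to 0.90 with either kind of copy. Rps12 went from -1.23 to -1.22 with its -ps genes and to -1.24 with the copies found by sequence. Rpl3 and Rps12 thus kept their calls and signs.

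Per kilobase of transcript and averaged over the 4 groups, the levels of the tested members ran from 18 to 4634 CPM per kilobase, with a median of 892 and quartiles of 537 and 1246. The highest were Rpl41 (4634), which encodes a very short peptide, Rps18 (2570.4) and Rps19 (2485). The lowest were Rpl39l (18), Rpl5 (38.2) and Rpl12 (54.1), and the copies of the last 2 held most of the reads of their sums, as given above. Rpl41 was lower in Sox2-positive cells (log2 fold change -0.59 ± 0.08, edgeR adjusted p = 8.38e-07). Rps18 was called lower by a small amount (-0.19 ± 0.06, edgeR adjusted p = 0.0128), a call lost in 22 of 35 alternatives, with values down to -0.07 (edgeR adjusted p = 0.366) with total-count scaling.

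The fold changes followed the length of the coding sequence, a property looked at after the values were seen. Over the 78 tested members with a coding sequence, Spearman's rho between coding length and log2 fold change was 0.46 over both batches, 0.49 in batch A and 0.43 in batch B, which describes members that share libraries. The 26 members with the shortest coding sequences (78 to 399 bases) had a median of -0.87, with 21 lower and 1 higher. The 26 of 402 to 555 bases had a median of -0.45, with 21 lower and 3 higher. The 26 longest (567 to 1260 bases), which include Rpl3, Rpl4 and Rplp0, had a median of -0.27, with 17 lower and 6 higher. Among 6312 other protein-coding genes of 78 to 1260 coding bases rho was 0.03, with medians of -0.11, 0.12 and 0.22 from the shortest to the longest class. In the same order, 36.2%, 26.8% and 24.8% of them were called lower and 25.1%, 31.7% and 35% higher. In the batches alone rho of such genes was 0.08 (batch A) and -0.01 (batch B). Among 75 mitochondrial ribosomal protein genes, which make the separate ribosome of mitochondria, rho was 0.44 over both batches, 0.57 in batch A and 0.25 in batch B.

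**Figure D5:**
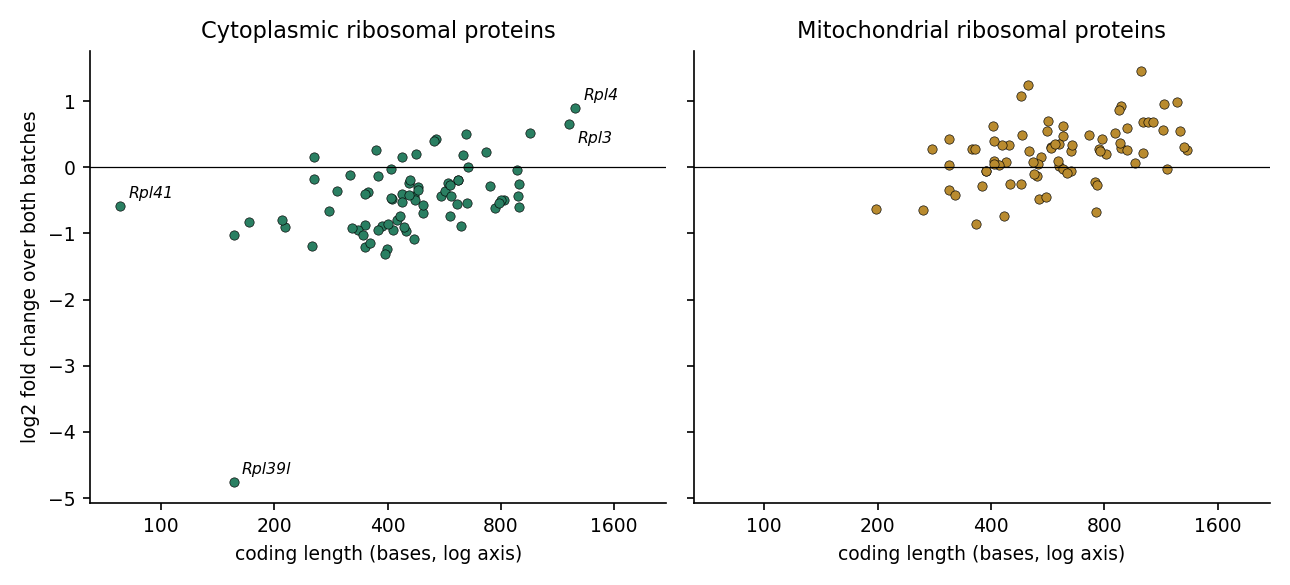
Log2 fold change of Sox2-positive over Sox2-negative cells over both batches (y axis) against the length of the coding sequence in bases (x axis, log scale), for 78 tested cytoplasmic ribosomal protein genes and for the mitochondrial ribosomal protein genes. Each point is a gene. Shorter members lie lower on average, with a median of -0.87 up to 399 bases against -0.27 from 567 bases.

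RefSeq promoter windows, from 250 bases before to 50 bases after the annotated start on GRCm38.p6, were found for 61 members (73 windows). Pyrimidine runs on the sense strand were counted if any part lay between 15 bases before and 25 bases after the start. Their full length was taken, also where it reached beyond these limits. A run of at least 8 bases occurred in 52.1% of the member windows and in 20.2% of all 32851 windows. Parts of the windows of 3 members, from 60 bases before to 15 bases after the start, are shown 5′ to 3′ on the gene's strand because their fold changes lie at both ends, with the longest pyrimidine run in capitals. They are Rpl4 at chr9:64173327-64173401 (plus strand, run of 14 bases), Rps15a at chr7:118116133-118116207 (minus strand, run of 10 bases) and Rplp2 at chr7:141447591-141447665 (plus strand, run of 10 bases).
Rpl4: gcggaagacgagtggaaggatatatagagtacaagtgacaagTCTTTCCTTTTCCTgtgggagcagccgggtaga
Rps15a: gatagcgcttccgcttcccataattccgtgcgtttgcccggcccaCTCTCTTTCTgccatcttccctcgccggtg
Rplp2: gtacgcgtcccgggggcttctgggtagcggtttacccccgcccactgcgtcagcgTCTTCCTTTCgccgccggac

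The run was present in Rpl4, which was higher, and in Rps15a and Rplp2, which were lower. The runs of Rpl4 and Rps15a end before the annotated start, and that of Rplp2 crosses it. Whether a run lies at the 5′ end of the mRNA was not tested. Of the 35 tested members with a run of at least 8 bases, 26 were lower and 4 higher over both batches (median -0.43). Of the 23 with a shorter run, 18 were lower and 3 higher (median -0.52). The motif CCGGAAG, the core bound by ETS factors, searched on both strands of the whole window, occurred in 35.6% of member windows and in 8.86% of all windows. AAGATGG, a core of YY1 sites, occurred in 15.1% and 6.34%, TATAAA in 9.59% and 13.6%, and CCAAT in 30.1% and 37.4%. The 25 tested members with CCGGAAG had a median of -0.43 and the 33 without it a median of -0.52. A match is a description of the letters only.

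Between the batches most members were higher in batch B in both populations, with day and mice not to be told apart. In Sox2-negative cells 49 of 79 were called higher and 2 lower (Rpl10 and Rps27l), against 5.85% and 5.35% of all genes, and in Sox2-positive cells 57 were higher and 0 lower by edgeR, against 4.85% and 5.54%. No member was lower there at an unadjusted p under 0.05 either, and DESeq2 and limma-voom also called 0 lower. Medians were 0.46 and 0.43. The largest differences were those of Rps13, at 1.45 ± 0.13 in Sox2-negative and 1.34 ± 0.12 in Sox2-positive cells, and of Rps7, at 1.20 ± 0.13 and 0.94 ± 0.12. Both are small-subunit proteins outside the rule for named genes, chosen here for their size, and their pseudogene copies held 76.6% and 49.3% of their sums. For Rps13 the copies held 86.6% and 84.5% in batch A Sox2-negative and Sox2-positive libraries, against 70.6% and 69.2% in batch B. For Rps7 they held 50.2% and 59.7% in batch A, against 35.2% and 57.6% in batch B. The part of this changing division of reads in the 2 batch differences was not tested. Without batch B libraries 1 and 2, the members called higher in Sox2-negative cells fell to 22. Over all genes tested, higher calls fell as well, from 1005 of 17190 to 405 of 18629. With erythroid and mitochondrially encoded genes removed, 49 members were called higher and 2 lower in Sox2-negative cells. This setting takes out those genes only, and the part of erythroid cells in the members' own counts was not tested.

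Libraries 1 and 2 of batch B stood apart in both populations, for most members in the same direction. In Sox2-negative cells both were above libraries 3 and 4 for 53 of 79 members and below them for 12, and in Sox2-positive cells both were above the other 5 for 58 and below them for none. These counts were not taken over all genes, so whether the pattern is particular to the members was not tested. Rpl4 shows the opposite directions: libraries 1 and 2 were its lowest in Sox2-negative cells, at 768 and 822 CPM, and its highest in Sox2-positive cells, at 2219.5 and 2225.5 CPM. The 12 were Rpl12, Rps6 and all 10 members called higher in Sox2-positive cells over both batches. Low values in Sox2-negative libraries 1 and 2 also enter those calls, so the match of the lists is partly built in. The mean levels of the groups stood in the order batch B negative, batch A negative, batch B positive, batch A positive for 38 members, and in the order batch B negative, batch B positive, batch A negative, batch A positive for 20. The order of batch B positive, batch A positive, batch A negative and batch B negative held for 6, among them Rpl4, Rpl10, Rpl11 and Rpl35. Such orders were likewise not counted over all genes. The median coefficient of variation between libraries of a group was 9.69% to 12.7%, and the order of neighbours was not tested beyond the comparisons above.

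Other lists of ribosome production, read against the 24.9% of all genes called higher and 32.5% called lower, had calls in both directions. Of 42 ribosome biogenesis factors, 18 were higher and 10 lower in Sox2-positive cells over both batches (median log2 fold change 0.32), with Utp4, a factor of small-subunit processing, at 2.02 ± 0.28 (edgeR adjusted p = 8.08e-07) and Nop2, a ribosomal RNA methyltransferase, at 1.43 ± 0.18. Ncl, the nucleolar protein nucleolin, was lower at -1.10 ± 0.12 (edgeR adjusted p = 1.13e-08). Of 78 mitochondrial ribosomal protein genes, 29 were higher and 10 lower (median 0.26), with Mrpl44 at 1.45 and Mrpl52 at -0.86. Of 18 translation factors and other mRNAs with terminal oligopyrimidine tracts, 6 were higher and 8 lower (median -0.15), from Pabpc1, the poly(A)-binding protein, at -1.59 ± 0.11 and Tpt1 at -1.45 ± 0.10 to Eif3l at 0.82 ± 0.10. Of 18 regulators, 5 were higher and 2 lower, with Myc, a transcription factor that drives ribosome production, at 1.96 ± 0.15 (edgeR adjusted p = 2.89e-11), Eif4e at 1.49 ± 0.10 and Larp1 at -0.82 ± 0.11. Of 6 ribosomal proteins and near copies outside the rule, 4 were lower and 1 higher, with Rack1, a scaffold protein on the small subunit, at -1.46 ± 0.12 and Rpl7l1 at 0.95 ± 0.14. Of 36 tested pseudogenes named -ps, 14 were lower and 7 higher (median -0.55).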

How the data were processed

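RNA of 23 Smart-seq2 libraries was analysed from the deposited table, which holds estimated counts per gene that the authors made; the submitters' processing notes name FastQC, Trimmomatic, Salmon and the build mm10, with no versions given. The values were not whole numbers (0.000436% of nonzero values lay within 1e-06 of one), so a per-gene adjustment may be part of the deposited estimated counts, and they were rounded before testing. Gene symbols, positions and transcripts came from GENCODE M21 on GRCm38 (mm10), where 99.5% of the gene IDs matched, and promoter windows from RefSeq on GRCm38.p6.

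Genes with low counts were removed with filterByExpr (minimum count 10), libraries were scaled by TMM, and differences were tested with edgeR 4.0.16 in R 4.3.3 by the quasi-likelihood F test with Benjamini-Hochberg adjustment over all genes tested, at an adjusted p under 0.05. The fit over both batches had the batch as a term, and the interaction and batch comparisons were taken from a fit with all 4 groups. Each batch was also fitted alone. CPM values were scaled by TMM over all libraries.

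Alternatives were RLE and total-count scaling, TMM factors without the members, other filters, removal of erythroid and mitochondrially encoded genes, DESeq2 1.42.0, limma-voom (limma 3.58.1), -ps pseudogenes added to their members, a replicate block, batch B libraries 1 and 2 left out and each library left out in turn. The addition of pseudogene copies found by sequence (at least 50% of their 31-base words in the member's transcript) was chosen after seeing the data. No libraries of a group were duplicates: the lowest chi-square per degree of freedom over 57 pairs was 5.08.

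The members and lists were chosen with earlier results of these data known. Members were named for a stated role, as near copies, for not passing the filter, or as the 4 highest and 4 lowest fold changes, the 3 largest interactions and the 3 highest and lowest levels per kilobase. From other lists at most 4 genes were named, the highest and lowest 2 called. Tested on simulated data with 17190 genes, the fit over both batches recovered 13%, 50% and 83.1% of genes changed by 0.5, 1 and 2 on the log2 scale, with 3 false calls, and the interaction test recovered 0%, 1.49% and 27.5%. The changed genes were drawn from all genes with a mean above 1 CPM. Recovery at the levels of the members, most of which are far higher, was not measured. Some items that these rules would name are not reported here.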

Additional observations from a re-analysis of the deposited data

Results flagged for a closer look

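Over 31 named members and the members' share of counts, each in the 4 groups, 128 sets of libraries were tested, and in 7 of them 1 library stood far from the others. At the nominal 95% level of this test chance flags about 1 in 20 groups. Rps27l was 361 CPM in batch A Sox2-negative library 2, with the others at 234 to 270 CPM, and 301 CPM in batch A Sox2-positive library 3, with the others at 185 to 221 CPM. Rps15a was 213 CPM in batch A Sox2-positive library 3, with the others at 160 to 179 CPM. The remaining 4 cases were single libraries with a few counts where the others had 0: Rpl3l at 0.726 CPM in batch B Sox2-positive library 6, Rpl32l at 0.307 CPM in batch B Sox2-positive library 3, Rpl6l at 0.712 CPM in batch A Sox2-positive library 4 and Rpl6l at 0.363 CPM in batch B Sox2-positive library 6.

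The difference between the populations itself differed between the batches for several named members by edgeR's interaction test. The interaction was 0.95 for Rpl10 (log2 fold change 0.09 in batch A and 1.11 in batch B), -0.38 for Rpl3 (0.83 and 0.51) and 0.33 for Rplp0 (0.38 and 0.77). The fold changes in brackets are from fits of each batch alone, and the interactions from the fit with all 4 groups. None of the interaction calls held in all 35 alternatives. That of Rpl10 was 0.10 (edgeR adjusted p = 0.775) with -ps pseudogenes summed, 0.50 (edgeR adjusted p = 0.385) without batch B libraries 1 and 2 and 1.04 (edgeR adjusted p = 0.0566) with the replicate block.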

How the results depend on the processing

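Over 90 log2 fold changes of named members, 2407 of 2496 alternative values kept their direction and their side of the threshold, 62 lost the call, 23 gained one and 4 reversed. The 4 were all Rpl10 with -ps pseudogenes summed: -0.22 over both batches, -0.31 in batch A, -0.14 in batch B and 0.33 for batch B against A in Sox2-negative cells. The interaction counts (4 higher, 1 lower) moved most. Higher calls were 7 with total-count scaling, 7 with DESeq2, 2 with no filter, 2 with -ps genes summed, 0 without batch B libraries 1 and 2 and 1 with the replicate block. Lower calls were 2 with limma-voom and 0 with RLE, total-count scaling, no filter, a mean of at least 10 counts, -ps genes summed, copies summed, batch B libraries 1 and 2 left out and the replicate block. For batch B against A in Sox2-negative cells, 22 members were higher and 0 lower without batch B libraries 1 and 2. Over all 18629 genes of that fit, 405 were higher and 349 lower. Lower calls of members were 4 with total-count scaling and 1 with limma-voom, no filter or -ps genes summed. The share of counts in batch A Sox2-negative libraries was 5.38% without erythroid and mitochondrially encoded genes and 5.49% with -ps genes, and in batch B Sox2-negative libraries 6.74% without those genes. The cause of these changes was not tested.

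Leaving out each library gave 10 to 12 higher and 55 to 59 lower members over both batches, 3 to 4 against 53 to 60 for batch A, 11 to 14 against 41 to 50 for batch B, 1 to 6 and 0 to 1 for the interaction, 40 to 50 and 0 to 2 for the batches in Sox2-negative cells, and 54 to 60 and 0 to 0 in Sox2-positive cells. The shares ranged from 5.13% to 5.24%, 4.32% to 4.54%, 6.1% to 6.4% and 5.55% to 5.75% in batch A Sox2-negative, batch A Sox2-positive, batch B Sox2-negative and batch B Sox2-positive libraries.

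The libraries share only a replicate number: same-numbered deviations correlated at -0.0212 to 0.0444 over 10 pairs, and 1 Sox2-negative library correlated best with its own number. With the replicate block in the fit, calls over both batches numbered 7 higher against 57 lower; batch A gave 3 against 54 and batch B 12 against 41. Total-count scaling moved the median of all genes over both batches from -0.12 to 0.00 and left 12 members higher and 53 lower (median -0.35). Few counts limit Rpl39l and the 4 untested members.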
